A study of Rattus norvegicus with 12 samples.

Results

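Hearts of obese ZSF1 rats were compared with hearts of lean ZSF1 rats across every gene that could be tested, using 8 of the 12 samples of the series: 4 labelled as lean controls and 4 as obese, the latter with the treatment label "diet-indcued obese". Genes were tested when they reached 1 TPM (a length-corrected share of a sample's transcripts) in at least 4 of these 8 samples, which left 10001 of 17602 genes. All samples are bulk RNA of cardiac muscle. Another 4 samples came from obese rats given 24 mM nicotinamide (NAM) in their water from week 8 to week 20 of age. They enter no main test here, and their levels are given beside some genes. The labels give no age for the lean and obese groups, no sex, no diet, no batch and no chamber of the heart. Nor do they tie samples to individual animals, and all p-values below therefore weigh differences only against sample-to-sample spread, which may be technical.

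As background, ZSF1 rats are a hybrid strain. The obese animals carry defective copies of Lepr, the leptin receptor gene, on a hypertensive background, while lean littermates keep a working copy. Obese ZSF1 rats develop diabetes and high blood pressure and serve as a model of heart failure with preserved ejection fraction, so the word diet in the label does not name the strain's known source of obesity. The adult rodent ventricle contracts mainly with the fast alpha myosin heavy chain made from Myh6 and burns mostly fatty acids, with glucose, ketone bodies and branched-chain amino acids as further fuels. A shift from alpha to slow beta myosin and a changed choice of fuel are textbook features of strained or diabetic hearts.

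On the rescaled log2 scale defined below, each sample correlated with the others of its group at a mean r of 0.958 to 0.965 across genes, and 0 of 28 pairs held identical values. Mitochondrially encoded transcripts took 66.2% to 70.4% of all TPM in lean and 74.6% to 75.5% in obese samples, and lean replicate 1 had the lowest share. TPM is a share of 1 total, so a larger mitochondrial share lowers the TPM of every other gene. The scaling factor of a sample, its median ratio to the geometric mean over genes, was 1.08 to 1.15 in lean and 0.876 to 0.970 in obese samples. Each gene is therefore described as deposited and after rescaling, where TPM was divided by that factor. Ventricular cardiomyocyte markers summed to 27697 to 31941 TPM in lean and 19427 to 21975 TPM in obese samples, and none of the 11 found in the table was at 0. In bulk RNA, fewer cells of a type and less RNA per cell cannot be told apart. These sums, and all sums of markers below, are as deposited, so the mitochondrial share enters them too. Obese replicate 1 had the lowest summed macrophage markers (28.9 TPM, against 67.4 to 119 TPM in the other obese samples), and lean replicate 1 the highest summed neutrophil and mast cell markers (122.9 TPM, against 12.0 to 24.4 TPM in the other lean samples). Sequencing depth cannot be recovered from TPM and is unknown.

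Obese hearts had lower TPM for a large share of nuclear genes, and a much smaller set of genes changed on both scales, among them falls of Myh6, of the ketone body enzyme Bdh1 and of the pacemaker channel Hcn2 and rises of mitochondrially encoded genes. A change is obese minus lean on the log2(TPM + 1) scale, which understates the change of low genes. It was tested with limma, adjusted by the Benjamini-Hochberg method over all 10001 genes, and called when the adjusted p was under 0.05. As deposited, 1561 genes changed (15.6% of those tested). Of these, 29 (0.29%) rose and 1532 (15.3%) fell, and the median gene stood at -0.20. After rescaling, 47 genes changed (0.47%). Of these, 17 (0.17%) rose and 30 (0.3%) fell. In both counts limma was used, and at an unadjusted p under 0.05 the counts were 3466 and 1505. The groups did not overlap for 24.7% of genes as deposited (24.2% lower, 0.54% higher) and for 9.6% after rescaling (5.39% lower, 4.21% higher). With TPM recomputed without the mitochondrially encoded genes and the other tested genes kept, the deposited scale gave 18 calls, 11 of them lower, and the rescaled one 23.

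**Figure D1:**
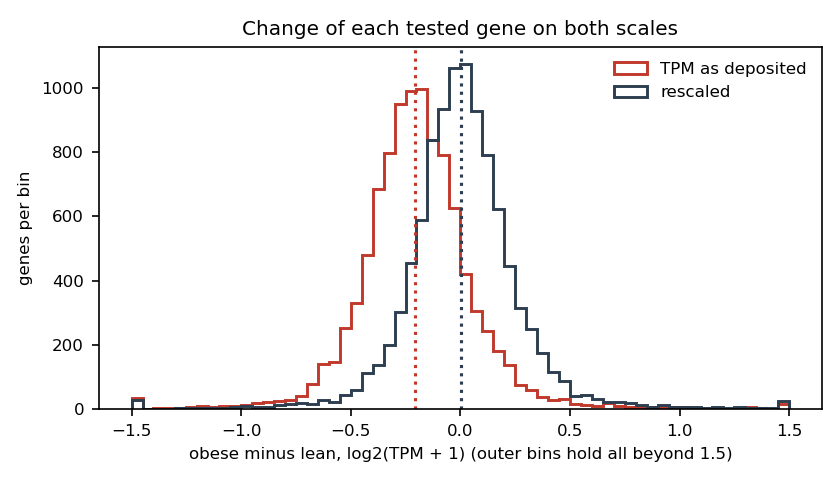
Number of genes (vertical axis) by change between obese and lean samples (horizontal axis, log2 units) for the 10001 genes tested, as deposited (red) and rescaled (dark blue); dotted lines mark the medians. The deposited distribution is centred on -0.20, the rescaled one near 0, and both have thin tails.

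In all, 43 genes were called on both scales in the same direction, 13 higher and 30 lower. The other 4 were called only after rescaling: Rpl31, a protein of the large ribosomal subunit, Mtfmt, which formylates the initiator tRNA of mitochondria, Igfbp4, a binding protein of insulin-like growth factors, and Ech1, a peroxisomal and mitochondrial enzyme of fatty acid oxidation. The rescaled calls were sensitive to single samples. When each of the 8 samples was left out in turn, 11 of the 47 were called in every fit, among them Myh6, Bdh1, Hcn2, Coq10a, Fndc5, Oxct1, Mt-co1, Mt-co3, Mt-nd4 and Mt-nd4l, and 30 were lost in at least 5 of the 8 fits. The count ranged from 14 without lean replicate 3 or obese replicate 4 to 50 without obese replicate 1. Without lean replicates 1, 2 and 4 it was 28, 16 and 16, and without obese replicates 2 and 3 it was 29 and 25. As deposited it ranged from 694 without obese replicate 3 to 1670 without obese replicate 2, with 940 and 756 without obese replicates 1 and 4 and 719, 1035, 858 and 951 without lean replicates 1, 2, 3 and 4.

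**Figure D2:**
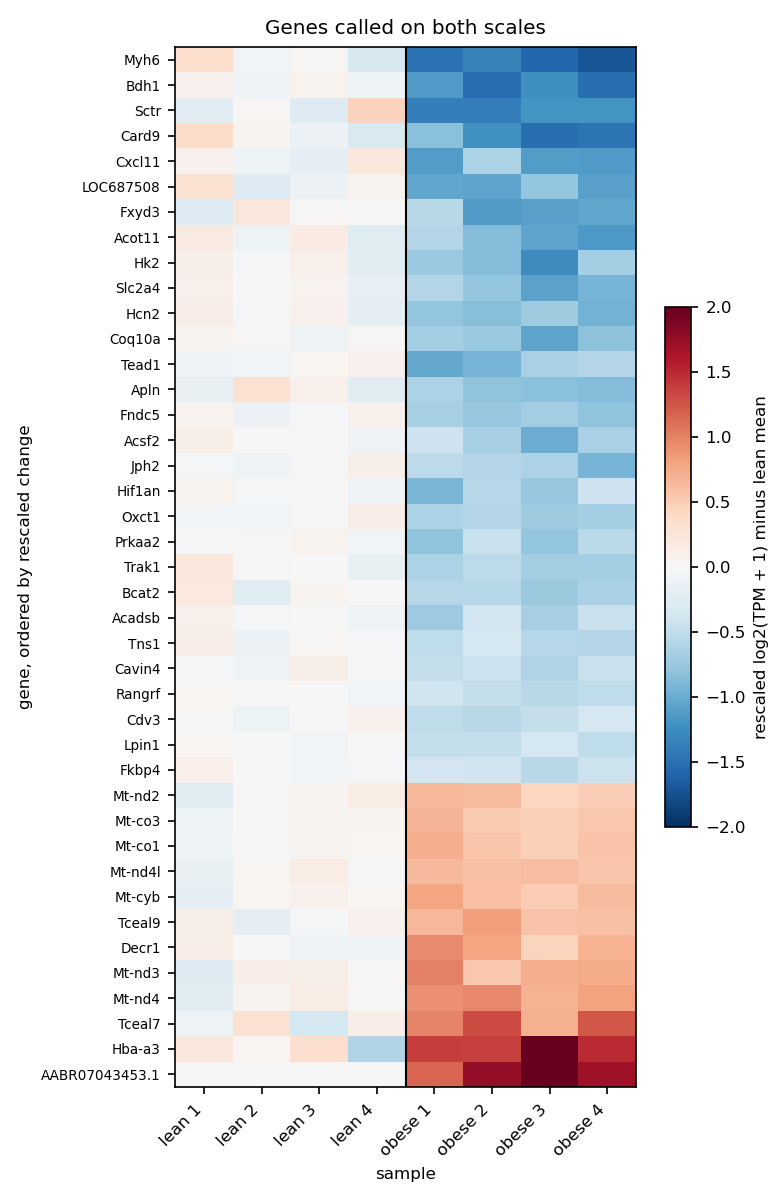
Rescaled log2(TPM + 1) of 41 of the 43 genes called on both scales (rows, ordered by change) in 4 lean and 4 obese samples (columns), as the difference from the lean mean (colour, log2 units, cut at 2). All 4 obese columns are blue for the 29 lower genes shown and red for the 12 higher ones.

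A large change was not by itself a call. After rescaling, 65 genes stood at 1 or more and 49 at -1 or less, and only 4 and 4 of them were called. Changes of 0.25 or more in size, called or not, were seen in 22.6% of the genes. Calls as deposited grew with level: 3.94% of genes with a mean under 2 TPM were lower and 15.7% of those between 5 and 10 TPM. The share was 26.7% between 10 and 30 TPM, 31.6% between 30 and 100 TPM and 46.3% at 100 TPM or more. Over the same classes the rescaled median went from 0.03 under 2 TPM to -0.07 at 100 TPM or more. Lists below are mostly set beside all genes without matching for level. The part of level in a larger deposited share of a list of abundant genes was not tested.

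The stretches before the starts of 5 genes are shown, the 2 genes with the largest falls among the rescaled calls and the 3 rescaled calls whose stretch held any of 5 short motifs. They come from RefSeq (build GRCr8, a newer assembly than the one the files use) and run from 250 bases before the start to the base before it, 5′ to 3′ on the gene's strand, with motif matches in capitals. Myh6 lies on chr15:32411698-32411947 and Bdh1 on chr11:82842637-82842886, both on the minus strand. Hcn2 lies on chr7:10639458-10639707 and Acot11 on chr5:126804508-126804757, again on the minus strand, and Tceal7 on chrX:104019834-104020083 on the plus strand.
Myh6: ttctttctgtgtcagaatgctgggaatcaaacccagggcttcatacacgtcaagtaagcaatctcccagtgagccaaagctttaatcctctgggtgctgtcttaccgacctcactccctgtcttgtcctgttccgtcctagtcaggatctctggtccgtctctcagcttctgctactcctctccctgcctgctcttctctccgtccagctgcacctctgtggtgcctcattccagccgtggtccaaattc
Bdh1: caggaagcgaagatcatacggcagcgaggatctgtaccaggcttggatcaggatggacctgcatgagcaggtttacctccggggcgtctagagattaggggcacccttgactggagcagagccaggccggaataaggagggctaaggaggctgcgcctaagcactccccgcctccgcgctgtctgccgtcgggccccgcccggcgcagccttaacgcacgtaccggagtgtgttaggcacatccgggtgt
Hcn2: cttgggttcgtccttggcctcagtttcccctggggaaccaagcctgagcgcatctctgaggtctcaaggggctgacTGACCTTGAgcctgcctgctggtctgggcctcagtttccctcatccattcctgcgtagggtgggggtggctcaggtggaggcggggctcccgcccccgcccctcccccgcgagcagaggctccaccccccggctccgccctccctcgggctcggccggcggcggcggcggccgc
Acot11: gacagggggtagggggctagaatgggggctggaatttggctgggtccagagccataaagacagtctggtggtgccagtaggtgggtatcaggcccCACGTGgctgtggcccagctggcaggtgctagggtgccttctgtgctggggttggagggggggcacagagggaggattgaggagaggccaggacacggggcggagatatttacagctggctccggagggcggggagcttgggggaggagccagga
Tceal7: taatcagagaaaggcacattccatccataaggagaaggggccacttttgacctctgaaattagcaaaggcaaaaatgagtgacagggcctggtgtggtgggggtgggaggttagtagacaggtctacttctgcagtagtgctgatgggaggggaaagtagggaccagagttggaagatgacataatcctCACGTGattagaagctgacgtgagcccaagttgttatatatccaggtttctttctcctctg
The motifs were searched on both strands over these bases and the next 50, and of the tested genes 7568 had such a sequence. CACGTG, the E-box core, was found in 9.57% of them, in 1 of 23 genes called lower after rescaling (Acot11) and in 1 of 6 called higher (Tceal7). TCAAGGTCA, a half-site form bound by estrogen-related receptors, was found in 0.251% and in 1 of the 23 (Hcn2, on the reverse strand, so its capitals are the reverse complement). TTATGTAA, TGACGTCA and CTATTTAT were found in 0.423%, 3.21% and 0.621% of all and in 0 of these called genes. The GC content was 53.2% for Myh6, 62.8% for Bdh1, 71.6% for Hcn2, 64.4% for Acot11 and 47.6% for Tceal7. A match describes letters in this window and shows no binding.

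The myosins of the heart changed in opposite directions as deposited, and Myh6 had the largest fall among the rescaled calls. Values per sample are listed for replicates 1 to 4 in order. Myh6 stood at 1032, 733, 779 and 620.3 TPM in lean and at 223, 272, 217 and 198 TPM in obese samples, so that the highest obese sample lay below every lean one. Its rescaled change was -1.52 (SE 0.14, limma adjusted p = 0.00565), and it was called in every fit that left out a sample. Myh7, the slow beta myosin, stood at 333, 291, 325 and 397 TPM in lean and 614, 702, 479 and 384 TPM in obese samples. Obese replicate 4 lay below the highest lean sample, and the change was 0.66 as deposited (adjusted p = 0.0408) but was not called after rescaling (0.93, adjusted p = 0.0729), and the deposited call was lost in 6 of the 8 fits with a sample left out. Of the 11 ventricular cardiomyocyte markers tested, 10 fell as deposited (90.9%, against 15.3% of all genes and 46.3% of genes at 100 TPM or more). After rescaling 1 of the 11 markers fell, Myh6, and the median was -0.24. Among them Myl3, a ventricular myosin light chain, went from 2219.7 ± 223 to 1427 ± 66.5 TPM (mean ± SD, n = 4 in each group, here and below) and Mybpc3, a thick filament protein, from 252 ± 29.6 to 164 ± 32.8 TPM, neither called after rescaling (adjusted p = 0.0746 and 0.254).

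Genes that respond to thyroid hormone in the heart, a list that holds both myosins, included 8 of 17 that fell as deposited (47.1%, against 15.3% of all genes) and 1, Myh7, that rose. After rescaling 2 fell, Myh6 and Hcn2, and 15 of 17 were negative with a median of -0.22. Atp2a2, the calcium pump of the sarcoplasmic reticulum, was at 1077 ± 113 against 667 ± 104 TPM and the receptor gene Thrb at 6.65 ± 0.613 against 4.44 ± 0.364 TPM, both called only as deposited (rescaled -0.44 and -0.27). Of 30 genes associated with hypertrophy or the fetal heart, 4 fell (13.3%, near the 15.3% of all genes) and 1 rose as deposited and limma called 0 after rescaling, where 3 were lower and 2 higher at an unadjusted p under 0.05. Nppa, which encodes atrial natriuretic peptide, was at 96.6, 90.8, 40.4 and 109.7 TPM in lean and 180.3, 268, 76.0 and 233 TPM in obese samples and was not called on either scale (rescaled adjusted p = 0.253).

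In obese hearts 2 genes of ketone body use fell. Bdh1, which oxidises 3-hydroxybutyrate, was at 21.9, 18.1, 20.5 and 18.4 TPM in lean and 6.69, 5.41, 6.43 and 5.17 TPM in obese samples. The groups were far apart relative to their spread, with a rescaled change of -1.35 (SE 0.11, adjusted p = 0.00424). Oxct1, which activates acetoacetate for burning, was at 443, 415, 430.3 and 478 TPM in lean and 226, 259, 222 and 229 TPM in obese samples, again without overlap (rescaled -0.65, SE 0.07, adjusted p = 0.00780). Both calls held in each fit that left out a sample. Bcat2, the mitochondrial transaminase of branched-chain amino acids, fell from 31.2 ± 4.66 to 16.4 ± 1.30 TPM (rescaled -0.63, adjusted p = 0.0363) and Acadsb, which acts further down the isoleucine path, from 29.1 ± 2.47 to 16.4 ± 2.60 TPM (-0.55, adjusted p = 0.0466). The rescaled calls of Bcat2 and Acadsb were lost in 7 and 8 of the 8 fits with a sample left out.

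**Figure D3:**
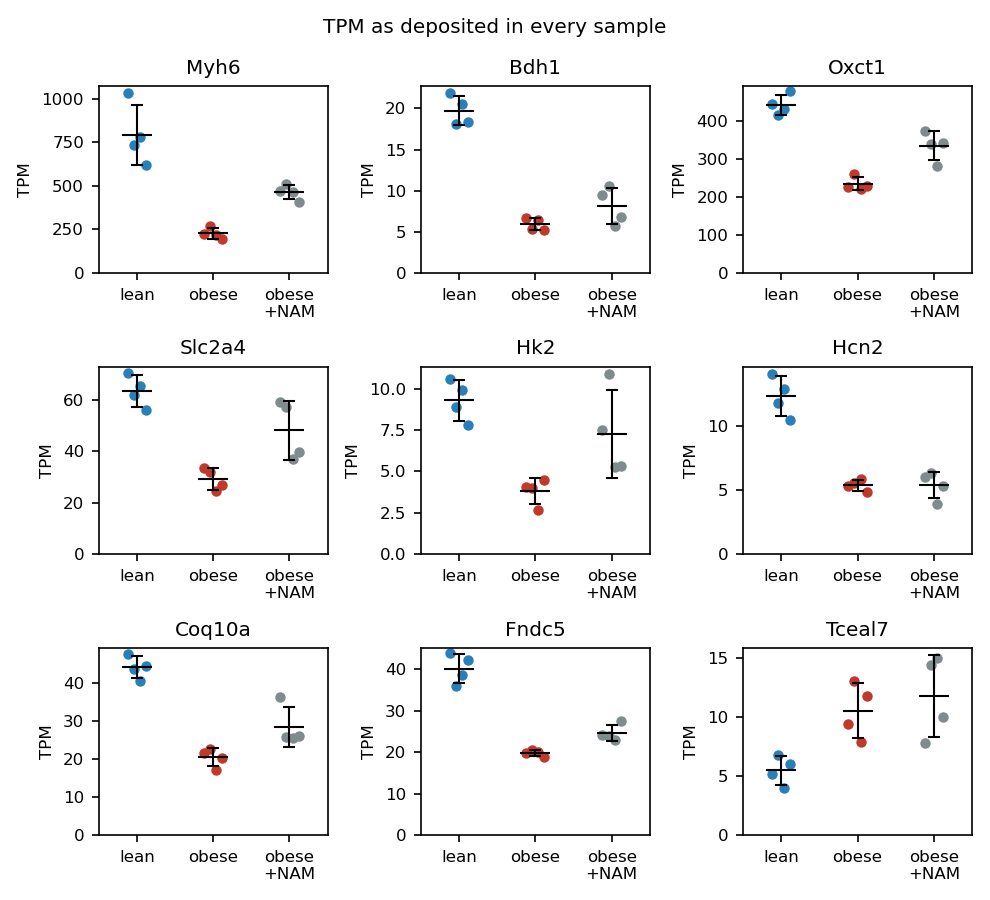
TPM as deposited (vertical axes, from 0) of 9 genes in 4 lean (blue), 4 obese (red) and 4 NAM-treated obese (grey) samples, 1 point per sample with the mean and SD as bars. Lean and obese points do not overlap in any panel. The NAM-treated mean lies between the other means for Myh6, Bdh1, Oxct1, Slc2a4, Hk2, Coq10a and Fndc5. All 9 genes were called between lean and obese samples, so the place of the NAM-treated mean is no test of treatment. The values are not rescaled.

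Slc2a4, Hk2 and Prkaa2 fell on both scales. Slc2a4, the insulin-responsive glucose transporter, stood at 70.5, 61.7, 65.4 and 56.0 TPM in lean and 33.4, 32.1, 24.5 and 27.0 TPM in obese samples (rescaled -0.84, SE 0.11, adjusted p = 0.0192). Hk2, the hexokinase that goes with it in muscle, stood at 10.6, 8.91, 9.92 and 7.78 TPM in lean and 4.04, 4.01, 2.67 and 4.47 TPM in obese samples (rescaled -0.89, adjusted p = 0.0383). For both, every obese sample was below every lean one, and the calls were lost in 3 and 6 of the 8 fits with a sample left out. Prkaa2, the catalytic alpha2 subunit of AMP-activated kinase, went from 22.9, 21.2, 23.0 and 21.1 TPM to 9.63, 13.95, 10.1 and 12.4 TPM (rescaled -0.65, adjusted p = 0.0305). Its rescaled call was lost in 7 of the 8 such fits. Glycogen handling genes were called lower for 8 of 18 as deposited (44.4%, against 15.3% of all genes) and for 0 after rescaling. On the rescaled scale 2 were lower and 1 higher at an unadjusted p under 0.05, and the median was -0.16. Examples were Ugp2, which makes UDP-glucose, and Ppp1r3a, the muscle glycogen-targeting subunit of protein phosphatase 1, at -0.51 and -0.51 as deposited. In the energy transfer list 7 of 20 fell as deposited (35%), led by the muscle creatine kinase Ckm (283 ± 37.5 to 176 ± 19.4 TPM). After rescaling 0 were called (3 lower and 2 higher at an unadjusted p under 0.05).

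Lipid genes did not move as 1 block. Decr1, which lets unsaturated fatty acids enter beta-oxidation, was at 131, 112, 108 and 109 TPM in lean and 176, 175, 130.0 and 154 TPM in obese samples, with obese replicate 3 just below lean replicate 1. Its change was 0.46 as deposited (adjusted p = 0.0282) and 0.72 rescaled (adjusted p = 0.0297). Ech1 was at 290.4, 229.7, 241 and 243 TPM in lean and 300.1, 309, 294 and 279 TPM in obese samples and rose only on the rescaled scale (0.50, adjusted p = 0.0297; as deposited 0.24, adjusted p = 0.0880). Both are among 28 PPAR-alpha target genes, of which 3 rose after rescaling (against 0.17% of all genes) and 0 fell, with a median of 0.13. As deposited 2 rose (7.14%, against 0.29% of all genes) and 4 fell (14.3%, against 15.3%). The gene of the receptor itself, Ppara, and its coactivator Ppargc1a went the other way as deposited, from 8.31 ± 0.961 to 4.54 ± 0.640 TPM and from 8.40 ± 1.20 to 4.97 ± 0.736 TPM, and missed the rescaled threshold (adjusted p = 0.0982 and 0.151). Acot11, an acyl-CoA thioesterase, fell from 3.83, 2.79, 3.57 and 2.47 TPM to 1.36, 1.06, 0.774 and 0.667 TPM (rescaled -0.92, adjusted p = 0.0434). Acsf2, an acyl-CoA synthetase family member, and Lpin1, a phosphatidate phosphatase and coactivator, fell as well (rescaled -0.68 and -0.45, adjusted p = 0.0466 and 0.0446). With a sample left out, the rescaled calls of Decr1 and Ech1 were lost in 5 and 7 of the 8 fits. Those of Acot11, Acsf2 and Lpin1 were lost in 7, 7 and 8. Lpl, which frees fatty acids from lipoproteins, was at 547 ± 58.4 against 315 ± 36.2 TPM and lay just outside the rescaled threshold (-0.54, adjusted p = 0.0562). In the lipogenesis and cholesterol list 3 of 18 fell as deposited (16.7%, near the 15.3% of all genes), among them Acacb, which makes the malonyl-CoA that restrains fatty acid entry into mitochondria (-0.62), and limma called 0 after rescaling (3 lower and 3 higher at an unadjusted p under 0.05).

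Subunits of the respiratory chain come from both the mitochondrial and the nuclear genome. As deposited, 7 genes of the first rose and most genes of the second fell, and only the rises were called after rescaling. Of the 13 mitochondrially encoded genes, 7 were called higher on both scales (53.8%), 0 were called lower, and the rescaled median was 0.55. At an unadjusted limma p under 0.05, 10 were higher and 1 was lower as deposited, and 11 were higher and 0 lower after rescaling. Of all genes, 0.29% rose as deposited and 0.17% after rescaling. Mt-nd4, a complex I subunit, stood at 19927, 22677, 24533 and 22355 TPM in lean and 33548, 38179.9, 29931 and 32284 TPM in obese samples (rescaled 0.84, adjusted p = 0.00780). Mt-co1 of complex IV stood at 58979, 59032, 61929 and 61904 TPM in lean and 79638, 78382, 69504 and 74320.2 TPM in obese samples (rescaled 0.58, adjusted p = 0.00791). Neither gene's groups overlapped. The other rises were those of Mt-nd3 (0.76), Mt-cyb (0.63), Mt-nd4l (0.60), Mt-nd2 (0.55) and Mt-co3 (0.55), with Mt-nd4l overlapping Mt-nd4, so that their reads may be shared. The rescaled calls of Mt-nd3, Mt-cyb and Mt-nd2 were lost in 5, 3 and 7 of the 8 fits with a sample left out. Nuclear subunits fell as deposited for 36 of 48 of complex I, 22 of 25 of complexes III and IV and 15 of 16 of ATP synthase. These shares (75%, 88% and 93.8%) stand beside 15.3% of all genes and 46.3% of genes at 100 TPM or more. After rescaling limma called 0 in each of these lists, with medians of -0.16, -0.15 and -0.16, 44, 23 and 15 negative values, and 15, 10 and 4 lower at an unadjusted p under 0.05, against 0, 1 and 1 higher. Ndufs8, an iron-sulfur subunit of complex I, went from 80.6 ± 10.5 to 49.9 ± 4.71 TPM (rescaled -0.42, adjusted p = 0.142), and Cox7a1, the muscle isoform of a complex IV subunit, from 5.95 ± 0.684 to 3.19 ± 0.896 TPM (rescaled -0.54, adjusted p = 0.127).

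Coq10a, which binds coenzyme Q in the inner membrane, was the only 1 of 10 coenzyme Q genes called after rescaling. It stood at 47.8, 43.9, 40.7 and 44.6 TPM in lean and 21.7, 22.7, 17.2 and 20.4 TPM in obese samples, with every obese value under every lean one (rescaled -0.82, SE 0.09, adjusted p = 0.00780). Another 4 of the 10 fell as deposited, so 50% of the list did, against 15.3% of all genes. Import of proteins into mitochondria had 15 of 34 genes lower as deposited (44.1%, against 15.3% of all genes). Its rescaled median was -0.17, with 0 called after rescaling and 11 lower and 1 higher at an unadjusted p under 0.05. Examples were the import motor Hspa9 (170.4 ± 10.3 to 115 ± 12.7 TPM), Samm50 of the outer membrane (69.8 ± 6.39 to 45.6 ± 4.58 TPM) and the motor's regulator Pam16 (39.1 ± 4.93 to 23.9 ± 3.17 TPM), at rescaled changes of -0.30, -0.35 and -0.43. Trak1, an adaptor that carries mitochondria along microtubules, fell on both scales from 26.6, 20.8, 21.5 and 19.5 TPM to 10.9, 13.1, 10.9 and 11.0 TPM (rescaled -0.63, adjusted p = 0.0268). Its rescaled call was lost in 4 of the 8 fits with a sample left out. Of 74 mitochondrial ribosomal proteins 24 fell as deposited (32.4%) and limma called 0 after rescaling (9 lower and 0 higher at an unadjusted p under 0.05).

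Hcn2, a channel of the pacemaker current that is also made in ventricle, was at 14.1, 11.8, 12.9 and 10.5 TPM in lean and 5.27, 5.51, 5.83 and 4.84 TPM in obese samples (rescaled -0.83, SE 0.10, adjusted p = 0.00929). Rangrf, which helps bring sodium channels to the membrane, was at 54.0, 50.02, 50.3 and 48.6 TPM in lean and 30.6, 31.7, 28.4 and 29.5 TPM in obese samples (rescaled -0.48, adjusted p = 0.0193). The groups were separate for both genes, although the rescaled call of Rangrf was lost in 5 of the 8 fits with a sample left out. Of 10 entries picked by symbol as sodium and calcium channel subunits 4 fell as deposited (40%, against 15.3% of all genes). Among them were the beta subunit Scn4b (-0.53) and Scnm1, which shares only the start of its symbol with the channels. After rescaling limma called 1 of the 10 lower, another member, with 4 lower and 0 higher at an unadjusted p under 0.05. Of 18 potassium channel subunits 5 fell as deposited (27.8%) and 0 after rescaling (4 lower and 0 higher at an unadjusted p under 0.05). Named by their currents, Kcnj12 carries inward rectifier current, Kcnj11 the ATP-sensitive current, Kcnk2 a stretch-gated background current, and Kcnip2 assists the transient outward current. Their deposited changes were -0.58, -0.63, -0.55 and -0.65.

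Rescaled calls that fell also included Jph2, Cavin4, Tead1, Fndc5, Tns1 and Cdv3. Jph2, which ties the transverse tubule to the sarcoplasmic reticulum, was at 12.6, 11.4, 12.0 and 13.3 TPM in lean and 6.53, 6.84, 6.23 and 4.95 TPM in obese samples (rescaled -0.67, adjusted p = 0.0312), and Cavin4, a caveolar coat protein of muscle, at 54.3, 50.2, 57.5 and 53.1 TPM in lean and 30.4, 35.0, 28.9 and 32.5 TPM in obese samples (rescaled -0.49, adjusted p = 0.0297). Tead1, the DNA-binding partner of the Hippo pathway's coactivators, was at 10.8, 10.2, 11.2 and 11.6 TPM in lean and 3.82, 4.63, 5.47 and 5.75 TPM in obese samples (rescaled -0.80, adjusted p = 0.0268). No obese sample reached a lean one for these 3 genes, but their rescaled calls were lost in 7, 8 and 5 of the 8 fits with a sample left out. Tead1 was the only 1 of 20 Wnt and Hippo genes called after rescaling. As deposited 4 of the 20 fell (20.0%, against 15.3% of all genes), Gsk3b among them (-0.55). Fndc5, the precursor of irisin, went from 43.8, 36.0, 38.5 and 42.2 TPM to 19.8, 20.4, 20.1 and 18.7 TPM (rescaled -0.73, SE 0.07, adjusted p = 0.00780), 1 of the calls kept in each fit with a sample left out. Tns1, a focal adhesion protein, fell from 32.0 ± 3.25 to 18.6 ± 2.21 TPM (-0.50, adjusted p = 0.0446), and Cdv3 from 18.9 ± 1.30 to 11.1 ± 0.751 TPM (-0.47, adjusted p = 0.0434). These 2 calls were lost in 7 and 8 of the 8 such fits. Of 27 genes of the dystrophin complex, costamere and intercalated disc 10 fell as deposited (37.0%, against 15.3% of all genes). Among these 10 were Dmd, which encodes dystrophin (-0.57), Sgcd (-0.57) and the desmosomal Dsp (-0.52). After rescaling limma called 0 of the 27, with a median of -0.16 and 6 lower and 0 higher at an unadjusted p under 0.05.

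Of 28 heat shock proteins and co-chaperones 14 fell as deposited (50%, against 15.3% of all genes). Among them were the mitochondrial chaperonin pair Hspd1 (125 ± 5.80 to 89.8 ± 9.01 TPM) and Hspe1 (1030.3 ± 159 to 668 ± 25.9 TPM). After rescaling 0 of the 28 were called (6 lower and 0 higher at an unadjusted p under 0.05, median -0.09). Fkbp4, a co-chaperone of steroid receptors outside that list, fell on both scales from 37.7 ± 2.91 to 22.9 ± 1.63 TPM (rescaled -0.44, adjusted p = 0.0406). Its rescaled call was lost in each of the 8 fits with a sample left out. Muscle ubiquitin ligases and adaptors fell for 10 of 28 as deposited (35.7%), including Trim63 (MuRF1, -0.66), Fbxo40 (-0.55) and Asb15 (-0.64). Proteasome subunits did so for 16 of 38 (42.1%), for example Psma7 (-0.50). For these 2 lists limma called 0 genes after rescaling, with 7 and 5 lower and 0 and 0 higher at an unadjusted p under 0.05. Of 60 translation initiation and elongation factors 15 were lower as deposited (25%), with 0 called after rescaling (4 lower and 4 higher at an unadjusted p under 0.05) and a median of -0.02. Of 30 aminoacyl-tRNA synthetases 3 were lower as deposited (10%), with 0 after rescaling (1 lower and 2 higher at an unadjusted p under 0.05) and a median of -0.03. Among cytosolic ribosomal proteins 3 of 89 were lower as deposited (3.37%), against 15.3% of all genes, and after rescaling 76 of 89 were positive with a median of 0.16 and 1 called, Rpl31, at 12.3, 10.3, 10.1 and 10.6 TPM in lean and 12.6, 13.2, 12.2 and 12.7 TPM in obese samples (rescaled 0.45, adjusted p = 0.0406). The Rpl31 call was likewise lost in each of the 8 fits with a sample left out. The 3 ribosomal protein genes lower as deposited were Rpl3l, the striated muscle form of a large subunit protein (-0.69), Rps6 and Rps21. Rps6 stood at 65.3, 76.2, 39.7 and 49.0 TPM in lean and 4.65, 0.925, 18.0 and 0.494 TPM in obese samples (-3.76 as deposited, adjusted p = 0.0316; rescaled -3.54, adjusted p = 0.153), and ribosomal protein genes have many near-identical copies among which reads can be split, so its value is uncertain.

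Card9, Cxcl11, Apln, Sctr, Fxyd3 and Hif1an fell on both scales, and Igfbp4 and Mtfmt rose after rescaling only. Card9, an adaptor of innate immune receptors, stood at 9.88, 7.30, 6.39 and 5.48 TPM in lean and 2.79, 2.16, 1.49 and 1.56 TPM in obese samples (rescaled -1.25, adjusted p = 0.0297). The chemokine Cxcl11 stood at 7.43, 6.003, 5.62 and 7.83 TPM in lean and 1.98, 3.46, 2.06 and 2.04 TPM in obese samples (rescaled -0.996, adjusted p = 0.0268). Apln, which encodes the peptide apelin, stood at 4.40, 6.06, 5.17 and 3.85 TPM in lean and 2.16, 2.02, 1.84 and 1.78 TPM in obese samples (rescaled -0.79, adjusted p = 0.0447). None of these 3 overlapped between groups, and their rescaled calls were lost in 6, 7 and 8 of the 8 fits with a sample left out. Sctr, the secretin receptor, was near absent in obese hearts, with 1.397, 1.75, 1.26 and 2.81 TPM in lean and 0, 0, 0.124 and 0.123 TPM in obese samples, and 0, 0, 0.0441 and 0.140 TPM in the NAM-treated ones (rescaled -1.28, adjusted p = 0.0192). Sctr passed the filter through its lean samples only, so this p-value is no separate support. The call was lost in 5 of the 8 fits with a sample left out. Fxyd3, a sodium pump regulator, went from 9.42 ± 1.22 to 3.63 ± 0.772 TPM (-0.95, adjusted p = 0.0385). Hif1an, which hydroxylates and restrains hypoxia-inducible factor, went from 12.1 ± 0.914 to 6.10 ± 1.19 TPM (-0.66, adjusted p = 0.0466). It was the only 1 of 23 genes of the hypoxia list called after rescaling, while 5 fell as deposited (21.7%), Higd1a among them (-0.66). Igfbp4 rose on the rescaled scale from 4.93, 4.23, 4.42 and 4.36 to 5.33, 5.601, 5.25 and 6.14 TPM as deposited (0.48, adjusted p = 0.0466), and Mtfmt from 4.06, 4.04, 3.76 and 4.00 to 4.85, 5.21, 5.11 and 4.58 TPM (0.47, adjusted p = 0.0446). The rescaled calls of Fxyd3, Hif1an, Igfbp4 and Mtfmt were lost in 6, 8, 8 and 8 of the 8 such fits.

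Among the named rises outside mitochondria were 2 members of the Tceal family. Tceal7, a small protein related to a transcription elongation factor, stood at 5.15, 6.77, 3.97 and 6.02 TPM in lean and 9.45, 13.1, 7.88 and 11.8 TPM in obese samples (rescaled 1.06, SE 0.17, adjusted p = 0.0406). Tceal9 stood at 32.8, 24.9, 28.1 and 30.5 TPM in lean and 37.2, 46.4, 36.0 and 36.6 TPM in obese samples (rescaled 0.67, adjusted p = 0.0229). Every obese value exceeded every lean one in both. Their rescaled calls were lost in 7 and 4 of the 8 fits with a sample left out. Uncharacterised entries were called as well. LOC687508 fell from 559, 353, 396 and 453 TPM to 168, 183, 209.6 and 170.1 TPM (rescaled -0.99, adjusted p = 0.0155). That call was lost in 2 of the 8 fits with a sample left out. AABR07043453.1 was listed at 0 in all 4 lean and all 4 NAM-treated samples and at 1.09, 2.30, 3.10 and 2.05 TPM in the obese ones (1.69, adjusted p = 0.00780), a change that depends on the value of 1 added before taking logarithms. The entry passed the filter through its obese samples only, so this p-value is no separate support. Its call was lost in 4 of the 8 fits with a sample left out.

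Blood and atrial transcripts were more abundant in some obese samples. Hba-a3, a hemoglobin alpha chain, stood at 7.75, 6.29, 8.00 and 3.67 TPM in lean and 14.2, 15.7, 27.6 and 16.1 TPM in obese samples, all 4 obese above all 4 lean (rescaled 1.62, adjusted p = 0.0446), and its call was lost in each of the 8 fits with a sample left out. Alas2, the red-cell enzyme of heme synthesis, stood at 5.43, 2.88, 3.39 and 1.92 TPM in lean and 5.66, 6.52, 11.8 and 10.2 TPM in obese samples and rose only as deposited (1.12, adjusted p = 0.0336; rescaled adjusted p = 0.0862). Erythroid and platelet markers summed to 737 to 1634 TPM in lean and 1684 to 4060 TPM in obese samples, 6 of 7 tested were positive after rescaling with a median of 1.20, and none of the 10 in the table was at 0 throughout. The part of blood in these rises was not tested, and reads of near-identical hemoglobin genes may be split. Atrial and conduction markers summed to 119 to 188 TPM in lean and to 306, 317, 139 and 612 TPM in obese replicates 1 to 4. The atrial myosin light chain Myl4 stood at 0.2505, 2.15, 0.776 and 1.20 TPM in lean and 17.1, 2.01, 0.458 and 43.0 TPM in obese samples and Myl7 at 0.677, 8.50, 7.87 and 3.05 TPM in lean and 30.4, 2.17, 5.30 and 99.3 TPM in obese samples, so obese replicates 1 and 4 stood apart from the rest. Neither was called (rescaled adjusted p = 0.459 and 0.537). With obese replicates 1 and 4 left out, an alternative chosen after seeing the data that leaves 2 obese samples, limma called 24 genes as deposited and 4 after rescaling. Bdh1 was called on both scales in that fit, and Myh6, Hcn2, Oxct1, Slc2a4, Coq10a, Tead1, Jph2 and Fndc5 only as deposited.

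Fibroblast and macrophage markers were positive after rescaling without any being called, and some vessel markers fell as deposited. All 12 fibroblast markers tested were positive after rescaling, with a median of 0.49, and limma called 0 on either scale, although 11 were higher and 0 lower at an unadjusted p under 0.05 after rescaling. Pi16, a marker of adventitial fibroblasts, stood at 12.0, 10.6, 8.40 and 9.30 TPM in lean and 15.1, 10.5, 16.7 and 17.7 TPM in obese samples (rescaled 0.76, adjusted p = 0.104), and the matrix protein Postn at 1.32, 0.844, 0.536 and 3.32 TPM in lean and 2.12, 3.13, 5.24 and 4.31 TPM in obese samples (1.15, adjusted p = 0.180). Summed fibroblast markers were 634 to 687 TPM in lean and 559 to 987 TPM in obese samples, so the obese range contained the lean one. All 13 macrophage markers were positive too (median 0.39), with 0 called and 0 at an unadjusted p under 0.05, and their sum was 46.0 to 76.1 TPM in lean and 28.9 to 119 TPM in obese samples. Of 28 complement and coagulation genes 24 were positive with a median of 0.33, and limma called 0 (5 higher and 0 lower at an unadjusted p under 0.05). C1s, a protease of the classical pathway, was at 26.9 ± 1.95 against 34.6 ± 8.33 TPM and C1qa, which macrophages make, at 9.24 ± 1.99 against 13.5 ± 5.97 TPM. Fibrillar collagens were not called, and of 14 collagens 2 fell as deposited (14.3%, near the 15.3% of all genes), the basement membrane chains Col4a1 (11.5 ± 2.20 to 7.16 ± 1.398 TPM) and Col4a2 (6.19 ± 1.26 to 3.73 ± 0.862 TPM). Of 13 endothelial markers 2 fell as deposited (15.4%, near the share of all genes), Aqp1 and Cdh5 (-0.60 and -0.40), and of 8 smooth muscle and pericyte markers 2 fell (25%), Abcc9 and Rgs5 (-0.58 and -0.39). After rescaling limma called 0 in both lists, with 1 lower and 3 higher and with 1 lower and 0 higher at an unadjusted p under 0.05. Smooth muscle and pericyte markers summed to 195 to 208 TPM in lean and 147 to 169 TPM in obese samples. The part of these cell types in any other change was not tested.

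**Figure D4:**
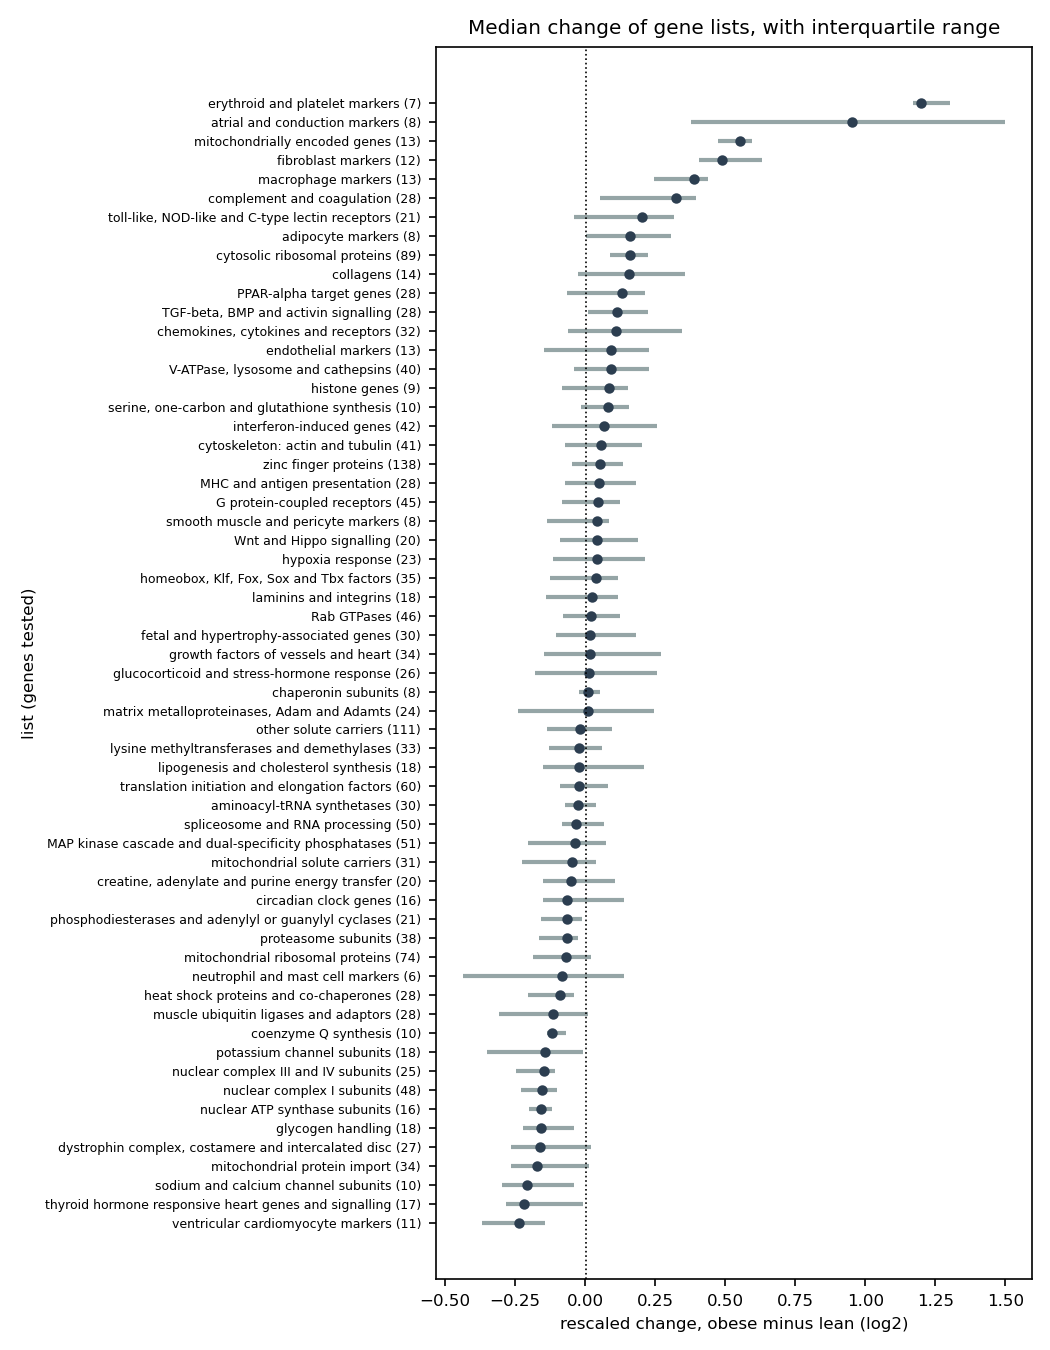
Median rescaled change (points, log2 units, horizontal axis) and interquartile range (bars) of 60 gene lists with at least 5 tested members (number in brackets; uncharacterised entries are not drawn); the dotted line is the median of all genes. Ventricular cardiomyocyte markers lie lowest at -0.24 and erythroid and platelet markers highest at 1.20.

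Across the 61 lists with at least 5 tested members the rescaled median ran from -0.24 to 1.20 and was below 0 in 27 and above 0 in 34. Regulatory groups were close to the median of all genes. Of 138 zinc finger proteins 7 were lower as deposited (5.07%) and 0 after rescaling (2 lower and 7 higher at an unadjusted p under 0.05), with a rescaled median of 0.05. Of 35 entries picked by symbol as homeobox, Klf, Fox, Sox and Tbx factors, some of which are other genes, 4 fell as deposited (11.4%), Foxn3 among them (4.39 ± 0.266 to 2.31 ± 0.371 TPM; rescaled -0.51, adjusted p = 0.0729). Several lists had 0 calls on both scales in limma: 28 genes of TGF-beta, BMP and activin signalling (0 lower and 3 higher after rescaling at an unadjusted p under 0.05), 26 of the glucocorticoid response (0 and 1) and 16 clock genes (0 and 0). Of 50 splicing and RNA processing genes 11 fell as deposited (22.0%), among them Mbnl1 (-0.53) and Rbm20, which splices titin (-0.54), and limma called 0 after rescaling (4 lower and 3 higher at an unadjusted p under 0.05). Of 42 interferon-induced genes 2 fell as deposited (4.76%, against 15.3% of all genes), Usp18 among them (7.25 ± 1.72 to 4.22 ± 0.592 TPM). As deposited 1 rose (2.38%, against 0.29% of all genes). Limma called 0 of the 42 after rescaling (1 lower and 5 higher at an unadjusted p under 0.05).

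Further lists with deposited calls were carriers, cyclic nucleotide enzymes, growth factors and general machinery. Of 31 mitochondrial solute carriers 7 fell (22.6%), among them Slc25a11, the oxoglutarate carrier (130.5 ± 9.79 to 92.2 ± 8.41 TPM), and after rescaling limma called 0 (6 lower and 1 higher at an unadjusted p under 0.05). Of 111 other solute carriers 15 fell (13.5%, against 15.3% of all genes), and Slc2a4 was the 1 called after rescaling. The anion exchanger Slc4a3 went from 4.63 ± 0.325 to 2.79 ± 0.106 TPM (rescaled -0.36, adjusted p = 0.107). Of 21 entries picked by symbol as phosphodiesterases and cyclases 5 fell (23.8%), including Pde3a and Pde4a, which break down cyclic AMP (-0.44 and -0.54), and Npr3, the clearance receptor of natriuretic peptides (-0.53). Limma called 0 of them after rescaling (4 lower and 1 higher at an unadjusted p under 0.05). Of 34 growth factor genes 3 fell as deposited (8.82%), among them Fgf1 (39.7 ± 5.93 to 28.4 ± 1.74 TPM) and Vegfb (21.4 ± 2.76 to 15.1 ± 2.06 TPM), and Igfbp4 was the 1 called after rescaling. Dynll1, a dynein light chain, rose as deposited from 37.1 ± 7.27 to 53.6 ± 5.07 TPM (rescaled 0.79, adjusted p = 0.0678), the only rise in a list of 41 actin and tubulin cytoskeleton genes in which 6 fell (14.6%). As deposited, the MAP kinase cascade had 13 of 51 genes lower (25.5%), Rab GTPases 9 of 46 (19.6%), V-ATPase, lysosome and cathepsin genes 7 of 40 (17.5%), lysine methyltransferases and demethylases 6 of 33 (18.2%) and laminins and integrins 3 of 18 (16.7%), against 15.3% of all genes. After rescaling limma called 0 in these 5 lists, with 7, 2, 2, 3 and 1 lower and 0, 3, 6, 1 and 2 higher at an unadjusted p under 0.05.

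The region around Lepr held 2 of the calls. Lepr itself was listed at 0.632, 1.15, 0.402 and 0.999 TPM in lean and 0.580, 0.745, 0.886 and 0.582 TPM in obese samples, too low to be tested, and TPM does not show the defect of the allele. By gene order in a newer annotation (GRCr8, used only for order), 2 of the 100 measured genes nearest to Lepr were called lower after rescaling. They were Prkaa2, the fifth, and Acot11, the tenth on 1 side, beside 0.3% of all genes. Both lie among the 20 nearest (10 on each side), a window that ends at Acot11. Each call was lost in 7 of the 8 fits with a sample left out. Of the 100 nearest, 23 fell as deposited (23.0%, against 15.3% of all), and the rescaled median was 0.02. Leprot, the neighbour that shares its promoter region with Lepr, stood at 8.22, 8.04, 9.26 and 7.01 TPM in lean and 8.40, 9.12, 9.72 and 10.8 TPM in obese samples and was not called (rescaled 0.44, adjusted p = 0.120). Rps6, described above, lies 30 measured genes to the other side. Lean and obese animals differ in the alleles of this region by design, so an effect of linked sequence and an effect of obesity on these genes cannot be told apart. In the NAM-treated samples Prkaa2 was at 22.1, 16.9, 21.3 and 24.0 TPM and Acot11 at 2.23, 2.79, 2.37 and 1.75 TPM as deposited. For both genes all 4 of these values lay above every untreated obese sample. Both genes were picked because they were called lower in the untreated obese samples. The difference from the NAM-treated samples was not tested, nor was its bearing on linked sequence or obesity.

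**Figure D5:**
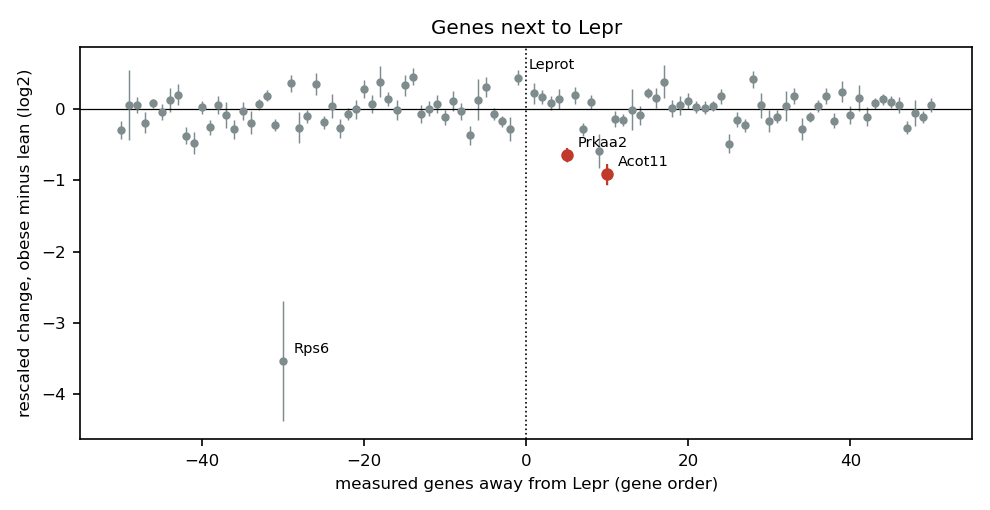
Rescaled change (log2 units, vertical axis, point with SE) of the 100 measured genes nearest to Lepr, by number of genes away from it (horizontal axis, Lepr at the dotted line); red marks genes called after rescaling. Prkaa2 and Acot11 are the red points at -0.65 and -0.92, and Rps6 lies lowest with a wide SE.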

How the data were processed

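RNA was sequenced from 12 cardiac muscle samples, of which 8 (4 lean, 4 obese) are compared. The authors deposited gene TPM in 1 table, with no counts, so depth is unknown and no counting interval can be given. The submitters' processing notes name the Rnor 6.0 build and limma, with the aligner and quantifier not given in the sources used here. TPM as deposited, and TPM divided by a median-of-ratios factor over the tested genes above 0 in all 8 samples, were taken as log2(TPM + 1) for the 10001 genes at 1 TPM or more in at least 4 of 8 samples. Groups were compared with limma 3.58.1 (trend and robust, statmod 1.5.0, R 4.3.3; 6 residual degrees of freedom before moderation) and Benjamini-Hochberg adjustment at 0.05. The labels give no batch, so a batch and the group cannot be told apart.

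The members and gene lists were chosen with earlier results of these data known. The rule for names took the 15 largest falls and rises called on both scales without overlap, the 8 most abundant rescaled calls, genes present in 1 group only, up to 4 called members of each list, called genes within 50 genes of Lepr, the most variable genes and a set list. Beyond it, the rescaled calls it does not give (45 of the 47 are named in all) and other genes (such as Pi16, Postn, C1s, C1qa, Myl4, Myl7, Leprot, Mybpc3, Atp2a2 and Thrb) were named after their values were seen, and not every gene it gives is reported here. Of the tested genes, 9100 (91.0%) matched the RefSeq table (GRCr8), used for gene order and sequences before starts. Alternatives changed the pseudocount, filter, scaling, test, samples and block. The fit was tested on simulated data.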

Additional observations from a re-analysis of the deposited data

Results flagged for a closer look

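In 17 of the 224 groups of 4 checked (112 genes, lean and obese apart), 1 sample stood further from the other 3 than Dixon's 95% critical value allows. Chance gives about 1 in 20 of independent groups. These groups share the same samples and their values are as deposited, so that rate is no benchmark for the 17. In 7 of the 17 groups it was lean replicate 1, the sample with the smallest mitochondrial share and a scaling factor of 1.15. Each time it was high: Acsf2 at 31.8 TPM (others 26.5 to 27.3), Decr1 at 131 TPM (108 to 112), Ckm at 339 TPM (262 to 267), Fkbp4 at 42.0 TPM (35.9 to 36.6), Aqp1 at 111 TPM (90.3 to 91.5), Fgf1 at 48.6 TPM (36.4 to 37.4) and Mybpc3 at 297 TPM (233.7 to 240.7). In lean replicate 3, Kcnk2 was low at 2.01 TPM (2.86 to 2.97). In obese replicate 2, Trak1 was at 13.1 TPM (10.9 to 11.0), Tns1 at 21.9 TPM (17.3 to 17.6), Cxcl11 at 3.46 TPM (1.98 to 2.06), Tceal9 at 46.4 TPM (36.0 to 37.2) and Cox7a1 at 4.53 TPM (2.65 to 2.88). In obese replicate 1, Fxyd3 was at 4.79 TPM (3.17 to 3.33), Ndufs8 at 56.9 TPM (47.1 to 48.2) and Gng5 at 143 TPM, with the other 3 obese samples listed at 0. In obese replicate 3, Hba-a3 was at 27.6 TPM (14.2 to 16.1), and that sample had the highest summed erythroid and platelet markers.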

How the results depend on the processing

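The count of calls depended strongly on scaling and on the samples. As deposited, the 1561 calls became 911 with no filter on low values and 18 with TPM recomputed without mitochondrially encoded genes, also 18 over the same genes. Leaving out 1 sample gave 694 to 1670, and leaving out obese replicates 1 and 4 gave 24. After rescaling, the 47 calls became 16 with no filter, 74 with a mean of at least 5 TPM, 17 without mitochondrially encoded genes (23 over the same genes), 23 with eBayes without trend and robust, 140 with all 12 samples, 14 to 50 with 1 sample left out and 4 with obese replicates 1 and 4 left out. The last setting, and the same genes without mitochondrial totals, were chosen after seeing the data. The median of all genes, -0.20 as deposited, was -0.25 with a pseudocount of 0.1, -0.11 with 5, -0.10 with no filter, -0.26 with a mean of at least 5 TPM, and above 0 without mitochondrially encoded genes (0.0537, and 0.0462 over the same genes), which follows from the smaller total. No pairing by replicate number was visible: deviations of same-numbered samples correlated at r = -0.02 to 0.07 across genes. Differently numbered samples gave -0.12 to 0.09, and 1 of 4 correlated best with its own number. With 4 samples per group this cannot exclude a pairing. With the replicate block, 554 genes were called as deposited and 6 after rescaling. Signs turned for Pdk4 rescaled without lean replicate 4 (0.12; -0.83 to 0.12 over all samples left out), for Dbp as deposited with a pseudocount of 5 (-0.0176), without lean replicate 4 (-0.54, the range over samples left out being -0.54 to 0.40), without obese replicate 4 (-0.0276) and without obese replicates 1 and 4 (-0.0967), for Dbp rescaled without lean replicate 4 (-0.30; -0.30 to 0.59), and for Myl7 as deposited without obese replicates 1 and 4 (-0.13); none of these values was called, and the cause was not tested. Over all pairs of a named gene and a setting other than leaving out 1 sample, calls were lost in 285 as deposited and 196 rescaled and gained in 14 and 15. Depth is unknown, so its limits cannot be given.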

Other observations

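Some genes varied widely within a group, and for Pdk4 and Dbp the spread within the lean group exceeded the difference between groups. Pdk4, which shuts off glucose oxidation, stood at 149, 47.1, 29.7 and 220.4 TPM in lean and 40.4, 67.9, 64.9 and 47.5 TPM in obese samples, so lean replicate 4 was the highest of all 8 (rescaled -0.35, limma adjusted p = 0.857). Dbp, an output gene of the circadian clock, stood at 12.8, 11.1, 10.2 and 0.984 TPM in lean and 7.43, 6.35, 6.25 and 10.7 TPM in obese samples, with lean replicate 4 again apart (rescaled 0.35, adjusted p = 0.851). Times of collection are not in the labels. Gng5, a G protein gamma subunit, was listed at 546, 132, 333 and 138 TPM in lean and 143, 0, 0 and 0 TPM in obese samples (rescaled -5.93, limma adjusted p = 0.224). It was present in all 4 lean samples and 1 obese sample, and in the NAM-treated ones it was at 0, 228, 0 and 0 TPM. Reads may be split with near-identical copies, so these values are uncertain.

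Genes called between obese and lean hearts lay at differing places in the 4 NAM-treated obese samples, which are not tested here. The genes were chosen on their lean and obese values, and all values here are as deposited. Myh6 was at 464 ± 40.9 TPM (mean ± SD, n = 4), between lean (791 ± 174) and obese (227 ± 31.6), and Oxct1 at 334 ± 38.1 TPM, between 442 ± 26.9 and 234 ± 17.1. Hcn2 was at 5.38 ± 1.04 TPM against 5.36 ± 0.419 in obese samples, where the means of treated and untreated obese samples were close relative to their spread. Decr1 was at 218 ± 28.8 TPM, above the obese mean of 159 ± 21.8, and Card9 at 1.33 ± 0.384 TPM, below the obese mean of 1.999 ± 0.607. Tns1 was at 33.5 ± 3.41 TPM, near its lean mean of 32.0 ± 3.25, and Hba-a3 at 8.94 ± 7.66 TPM, nearer its lean (6.43 ± 1.99) than its obese mean (18.4 ± 6.19).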
